A study of Homo sapiens with 2 samples.

Results

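Notch is a cell-to-cell signalling route in which a ligand on one cell binds a receptor on its neighbour. The described genes are 3 of its receptors (NOTCH1, NOTCH2 and NOTCH3), 2 ligands (JAG1 and JAG2), the DNA-binding factor RBPJ, and 4 targets (HES1, HEY1, HEY2 and NRARP). They were taken by gene symbol from the deposited table, which held all 10 of them among 28038 listed genes. They were chosen by symbol with the counts and FPKM values of these same libraries, and the ratios between them, already known, so the values below are a description and carry no test.

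RNA was sequenced from 1 culture of OVCAR-3 overexpressing IGF2BP3, which binds messenger RNA at m6A sites, and from 1 control culture of the same line that carried an empty viral vector. OVCAR-3 is an established human ovarian carcinoma cell line. The labels do not say whether either culture was a clone, which promoter drove IGF2BP3, or how long after transduction RNA was taken. With 1 library per group there is no replicate error, every difference is between these 2 libraries, and the intervals given cover counting error only. In RNA from whole cultures, fewer cells that express a gene and less RNA per cell cannot be told apart.

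The listed counts summed to 48017861 in the overexpression library and 43190215 in the control library. IGF2BP3 itself had 6376 counts in the overexpression library and 2944 in the control library, a ratio of 1.96 in CPM (a gene's counts scaled to the library total after TMM adjustment) with a 95% counting interval of 1.88 to 2.05. The deposited table listed 9 of 14 serous carcinoma and epithelial markers that were looked up, and 8 of the 9 stayed below 10 CPM in each library. The exception was KRT18, a keratin of simple epithelia, at 102 CPM in the overexpression library and 103 CPM in the control library. CDH1, the epithelial cadherin, had 2 counts in each library, and the Mullerian factor PAX8 had 32 counts in the overexpression library and 28 in the control library. VIM, the mesenchymal intermediate filament, stood at 2149 CPM in the overexpression library and 2175 CPM in the control library. Of the 6 mesenchymal markers looked up, however, ZEB2, FN1 and TWIST1 stayed below 10 CPM in each library. ZEB1 stood at 58.9 CPM in the overexpression library and 57.1 CPM in the control library, and CDH2 at 12.5 and 13.1 CPM. The labelled ovarian epithelial identity was thus not borne out by most of its listed markers in either culture. Endothelial markers reached at most 4 counts in either library, and of the leukocyte markers PTPRC had 4 counts in the overexpression library and 0 in the control library. LCP1, the leukocyte marker with the most counts, had 145 in the overexpression library and 116 in the control library.

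When a ligand pulls on a Notch receptor, the receptor is cut first by an ADAM protease and then by gamma-secretase, and its intracellular part moves to the nucleus. There it joins RBPJ and a Mastermind coactivator on DNA and turns on targets such as the HES and HEY genes, whose products are transcriptional repressors. Without that signal RBPJ recruits corepressors to the same sites. In ovarian carcinoma the pathway is known above all for gains of NOTCH3.

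The promoters of 3 targets are shown because their transcripts differed in direction: HES1 was lower in the overexpression library, NRARP was not, and HEY2 was lower by the counts as deposited but, at 40 counts in the overexpression library and 60 in the control library, not beyond counting error from halved counts. Sequences are from RefSeq on GRCh38.p14, from 250 bases before to 50 bases after the transcription start, 5′ to 3′ on the gene's own strand. Capitals mark TGGGAA, the core of the RBPJ binding motif, or TTCCCA, the same motif on the opposite strand.
HES1 (chr3:194135898-194136197, plus strand): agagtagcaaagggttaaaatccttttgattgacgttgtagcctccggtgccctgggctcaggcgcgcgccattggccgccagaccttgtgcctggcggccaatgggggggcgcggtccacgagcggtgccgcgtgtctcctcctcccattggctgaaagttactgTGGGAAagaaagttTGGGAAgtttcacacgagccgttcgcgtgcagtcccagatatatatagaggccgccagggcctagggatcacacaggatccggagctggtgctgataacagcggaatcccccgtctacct
HEY2 (chr6:125749382-125749681, plus strand): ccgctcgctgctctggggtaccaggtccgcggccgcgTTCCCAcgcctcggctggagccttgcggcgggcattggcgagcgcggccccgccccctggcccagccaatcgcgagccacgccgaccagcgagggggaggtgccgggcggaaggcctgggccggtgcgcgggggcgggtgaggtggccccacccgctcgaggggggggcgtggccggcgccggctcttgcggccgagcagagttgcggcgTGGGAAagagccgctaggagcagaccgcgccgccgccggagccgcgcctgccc
NRARP (chr9:137302222-137302521, minus strand): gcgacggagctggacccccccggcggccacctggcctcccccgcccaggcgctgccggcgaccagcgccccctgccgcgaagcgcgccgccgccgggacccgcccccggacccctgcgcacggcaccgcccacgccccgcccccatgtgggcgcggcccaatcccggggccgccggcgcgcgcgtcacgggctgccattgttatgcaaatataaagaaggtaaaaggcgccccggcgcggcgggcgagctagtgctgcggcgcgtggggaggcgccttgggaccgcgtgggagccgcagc

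The HES1 window held 2 copies of the core, both on the gene's strand, with their first bases at -84 and -70 from the start. The first of these was also a match to the longer GTGGGAA. The HEY2 window held 2 copies as well, 1 on the opposite strand at -213 and 1 on the gene's strand at -3, and both matched the longer form. These positions count from the RefSeq start only. The HEY2 gene in GENCODE release 29 begins upstream of this whole window, at 125747664. The NRARP window held neither the core nor the longer form. Among 35116 RefSeq promoter windows of this length, 24% held the core at least once on either strand and 3.8% held it at least 2 times, while 6.25% held the longer form, which contains the core. Sequences for 9 of the 10 genes were in the table used, without HEY1. NOTCH1, NOTCH2, NOTCH3, JAG1, JAG2 and RBPJ held no copy of the core in their windows. The N-box CACNAG, the class of site that HES proteins bind, occurred 4 times in the HES1 window on either strand. The windows of NOTCH1, NOTCH2, NOTCH3, NRARP and RBPJ also held it at least once, and those of HEY2, JAG1 and JAG2 did not. Of all windows, 38% held it at least once. A match is a description of the letters, and the absence of one says nothing about binding elsewhere.

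The level of each gene is given as FPKM (counts scaled to gene length in kilobases and to the library total), which allows genes to be compared. In the overexpression library NOTCH2 was the highest of the 10 at 13.1 FPKM, followed by JAG2 at 12.4, HES1 at 9.96, NRARP at 9.83, RBPJ at 5.63, NOTCH1 at 2.65, NOTCH3 at 1.12, HEY1 at 0.49, HEY2 at 0.31 and JAG1 at 0.0045 FPKM. In the control library the order at the top was different: JAG2 stood at 13.4 FPKM, HES1 at 13.0, NOTCH2 at 11.7 and NRARP at 9.62, with RBPJ at 5.09 and the 5 lowest genes in the same order. Both cultures therefore held transcripts of receptors, of 1 Jagged ligand, of RBPJ and of targets. No replicate spread is available to say which neighbours in these orders differ.

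**Figure D1:**
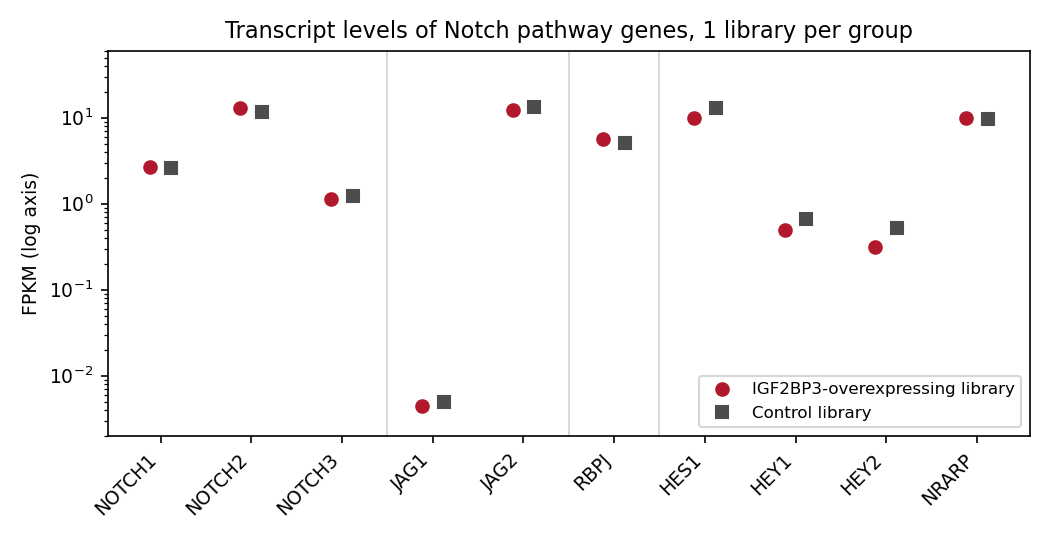
FPKM of the 10 genes on a log axis, with receptors, ligands, RBPJ and targets separated by grey lines; circles are the overexpression library and squares the control library, with 1 library each. JAG1 lies far below all others at 0.0045 FPKM in the overexpression library and 0.0050 FPKM in the control library, and the largest gaps between the symbols are at HES1, HEY1 and HEY2.

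The comparison asked which of these transcripts differed when IGF2BP3 was overexpressed. HES1, HEY1 and HEY2 were lower in the overexpression library, at 0.773, 0.744 and 0.604 times their control levels. NOTCH2 and RBPJ were slightly higher, at 1.13 and 1.11 times, JAG2 was slightly lower, at 0.929 times, and NRARP and NOTCH1 were within counting error of 1-fold, as was NOTCH3. None of the 9 genes with 50 counts or more over both libraries was 1.5-fold different by the size rule used, which takes the log2 ratio of CPM plus 1. For HEY2 this rests on the added constant. Without it HEY2 was 1.66-fold lower, from 40 counts in the overexpression library and 60 in the control library.

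A gene counted as measured when its counts in the 2 libraries summed to 50 or more, as those of 9 of the 10 did. By the size rule, 3 of the 9 were at least 1.2-fold lower under overexpression. Of all 14157 measured genes, 5.74% were at least 1.2-fold lower. None of the 9 was at least 1.2-fold higher, where 7.49% of all genes were. Likewise 1.66% of all genes were at least 1.5-fold different in either direction. The median log2 ratio over the 9 measured genes was -0.11, and that over all measured genes was 0.00. By the counting interval instead, 4 of the 9 lay wholly below 1-fold, where 18.6% of all genes did, and 2 wholly above, where 22.8% did. With halved counts, used because low counts in both libraries were mostly even as if both mates of a read pair had been counted, 2 of the 9 lay below (10.9% of all genes) and 2 above (15.9%). The genes were chosen with these ratios known, so nothing is read from these shares.

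NOTCH1 (ENSG00000148400; GRCh38 chromosome 9, 136494433 to 136545786, minus strand), a receptor of broad use in epithelia and blood, had 1595 counts in the overexpression library and 1402 in the control library. It stood at 33.3 CPM in the overexpression library and 32.4 CPM in the control library, a ratio of 1.03 with an interval of 0.958 to 1.11. NOTCH1 was thus not distinguishable between the libraries at this depth. NOTCH2 (ENSG00000134250; chromosome 1, 119911553 to 120069626, minus strand), the most abundant receptor here, had 10519 counts in the overexpression library and 8430 in the control library. Its ratio of 1.13 had an interval of 1.1 to 1.16, and 15.0% of all measured genes had a ratio at least as high. NOTCH2 shares 26.4% of its 31-base transcript words with other annotated genes, most of all NBPF19 and also NOTCH2NLA and NBPF14. Its value is therefore uncertain if the authors' counting split reads between these genes.

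NOTCH3 (ENSG00000074181; chromosome 19, 15159038 to 15200981, minus strand), a receptor known from vascular smooth muscle, had 507 counts in the overexpression library and 497 in the control library. The ratio of 0.923 had an interval of 0.814 to 1.05, which includes 1-fold. NOTCH2 made up 77.6% of the summed FPKM of the 3 receptors in the overexpression library and 75.3% in the control library. NOTCH1 made up 15.7% in the overexpression library and 16.7% in the control library, and NOTCH3 made up 6.66% in the overexpression library and 7.91% in the control library. Set against NOTCH3 within each library, NOTCH2 counts were 20.7 times as many in the overexpression library and 17.0 times in the control library, a ratio of ratios of 1.22 with an interval of 1.08 to 1.39. This last value does not depend on how the libraries are scaled. NOTCH4, the remaining receptor, was not among the listed genes.

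JAG2 (ENSG00000184916; chromosome 14, 105140981 to 105168824, minus strand), a ligand that is anchored in the membrane of the sending cell, had 3805 counts in the overexpression library and 3708 in the control library. At 79.5 CPM in the overexpression library and 85.6 CPM in the control library, its ratio was 0.929 with an interval of 0.888 to 0.972, and 22.4% of all measured genes had a ratio at least as low. With a trend on GC content and length over all genes removed, an alternative added after seeing the data, the log2 ratio of JAG2 was -0.035 in place of -0.105. JAG2 shares 6.85% of its 31-base words with the overlapping annotated gene AL512356.1. JAG1 (ENSG00000101384; chromosome 20, 10637684 to 10673999, minus strand), its close relative, had 2 counts in each library. That is under the floor of 3 counts, which equals 0.0627 CPM in the overexpression library and 0.0692 CPM in the control library, so no fold is given. Of the other chosen ligands, the Delta-like gene DLL3 was the only classical one measured, with 301 counts in the overexpression library and 243 in the control library and an interval that includes 1-fold, 0.944 to 1.33. DLL4 had 2 counts in each library, and DLL1 was not listed.

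RBPJ (ENSG00000168214; chromosome 4, 26163455 to 26435131, plus strand), which binds DNA for the whole pathway, had 4140 counts in the overexpression library and 3364 in the control library. Its ratio was 1.11 with an interval of 1.06 to 1.17, and 17.9% of all measured genes had a ratio at least as high. After the same trend was removed, the log2 ratio of RBPJ was 0.029 in place of 0.154. RBPJ and NOTCH2 were the 2 of the 9 genes with an interval wholly above 1-fold, from deposited and from halved counts.

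HES1 (ENSG00000114315; chromosome 3, 194136145 to 194138732, plus strand), a basic helix-loop-helix repressor and the most widely used readout of Notch activity, had 985 counts in the overexpression library and 1153 in the control library. It stood at 20.6 CPM in the overexpression library and 26.6 CPM in the control library, a ratio of 0.773 with an interval of 0.710 to 0.843. Halved counts would widen this to 0.684 to 0.874, still below 1-fold. Its log2 ratio of -0.36 was reached or undercut by 2.66% of all measured genes. For HEY1 and HEY2 the same shares were 3.48% and 2.24%. These genes were chosen with their ratios known, so nothing is read from these shares. The promoter with 2 RBPJ cores at -84 and -70, printed above, belongs to HES1.

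HEY1 (ENSG00000164683; chromosome 8, 79764010 to 79767863, minus strand), a related repressor known from heart and vessel development, had 129 counts in the overexpression library and 157 in the control library. The ratio was 0.744 with an interval of 0.585 to 0.945, and halved counts would extend it to 1.05. HEY2 (ENSG00000135547; chromosome 6, 125747664 to 125761269, plus strand), its paralog, was low in both, with 40 counts in the overexpression library and 60 in the control library. Its ratio was 0.604 with an interval of 0.394 to 0.915, and halved counts would extend it to 1.1. On the opposite strand it overlaps AL365259.1, which had 4 counts in the overexpression library and 0 in the control library. The constant added to CPM weighs heavily at this level, and the log2 ratio of CPM plus 1 was -0.38 for HEY2 and -0.32 for HEY1. By the counts as deposited both HEY genes were thus below their control levels, but not beyond counting error from halved counts.

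HES1 made up 92.6% of the summed FPKM of HES1, HEY1 and HEY2 in the overexpression library and 91.7% in the control library. HEY1 counts were 0.131 times those of HES1 in the overexpression library and 0.136 times in the control library, a ratio of ratios of 0.962 with an interval of 0.744 to 1.24. For HEY2 over HES1 the ratio of ratios was 0.780 with an interval of 0.505 to 1.2. The sizes of the 3 differences could therefore not be told apart at this depth.

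NRARP (ENSG00000198435; chromosome 9, 137300482 to 137302251, minus strand), an ankyrin repeat protein that Notch induces and that in turn dampens the Notch complex, had 1246 counts in the overexpression library and 1097 in the control library. At 26.0 CPM in the overexpression library and 25.3 CPM in the control library, its ratio was 1.03 with an interval of 0.947 to 1.12. NRARP and HES1 had similar FPKM in the overexpression library, at 9.83 and 9.96. The count of NRARP over that of HES1 was 1.26 in the overexpression library and 0.951 in the control library, a ratio of ratios of 1.33 with an interval of 1.18 to 1.5. The 2 targets thus parted by more than counting error, a contrast that does not rest on scaling; whether it exceeds the spread between cultures cannot be tested with these libraries.

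**Figure D2:**
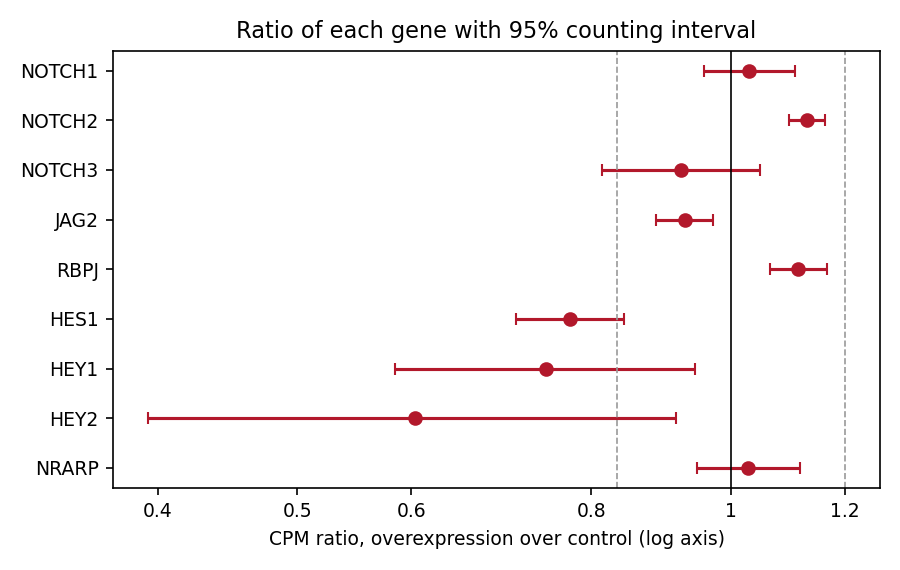
Ratio of CPM, overexpression over control, on a log axis for the 9 genes past 50 counts, with 95% exact counting intervals as bars and dashed lines at 1.2-fold higher and lower. The points of HES1, HEY1 and HEY2 lie left of the lower dashed line at 0.773, 0.744 and 0.604, and the other 6 points lie between the dashed lines.

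**Figure D3:**
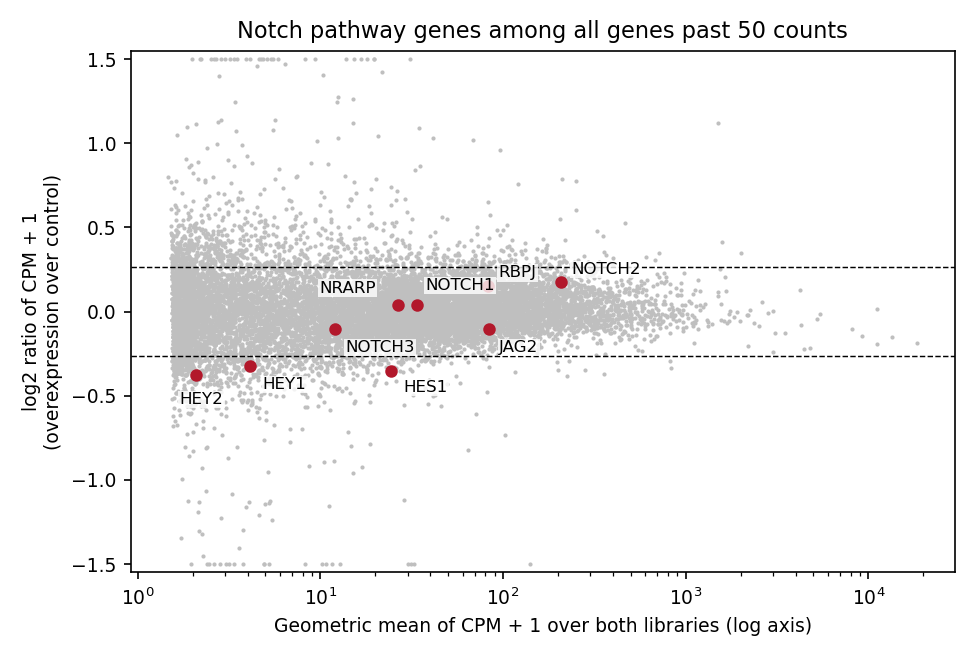
Each grey point is 1 of 14157 measured genes, with the geometric mean of CPM plus 1 over both libraries on a log x axis and on the y axis the log2 ratio (overexpression over control) after adding 1 to CPM, where values past 1.5 in size are drawn at 1.5. The 9 Notch genes are in red; HES1 sits near the lower edge of the genes of its abundance, while HEY1 and HEY2 lie where the spread of all genes is wide.

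The authors' deposited table gave log2 fold changes, overexpression over control, of -0.38 for HES1, -0.44 for HEY1 and -0.74 for HEY2. In the authors' deposited table NOTCH2 stood at 0.17, RBPJ at 0.15, NOTCH1 at 0.03, NRARP at 0.03, JAG2 at -0.12 and NOTCH3 at -0.12. No gene within 1 Mb of any of the 10 was 2-fold different or more. Within 1 Mb of HES1 lay 8 measured genes and within 1 Mb of HEY2 lay 7, none of which was at least 1.2-fold lower. Of the 8 measured genes within 1 Mb of HEY1, 3 were at least 1.2-fold higher and none lower. At least 1.2-fold lower were 6 of 56 such neighbours of NOTCH1, 6 of 54 of NRARP and 2 of 3 of JAG1. The windows of NOTCH1 and NRARP overlap on chromosome 9, so the same genes can enter both counts. Of all measured genes, 5.74% were at least 1.2-fold lower and 7.49% higher.

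The rest of the pathway was described by lists made by role, with 99 chosen genes, of which 86 were listed and 78 measured. By the 1.2-fold rule 6 of the 78 were higher under overexpression and 6 lower, where 7.49% of all measured genes were higher and 5.74% lower. Both shares were thus near those of all genes. The median log2 ratio of the 78 was 0.02. The other 66 were within 1.2-fold by this rule, which takes the log2 ratio of CPM plus 1. Intervals given for these list genes are from the counts as deposited, not from halved counts.

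Of the 6 higher genes, 3 act in receptor cleavage. Of 9 measured members, 3 were at least 1.2-fold higher and none lower, with a list median of 0.04, where 7.49% of all measured genes were higher and 5.74% lower. ADAM10, the protease that makes the first cut after ligand binding, had 7978 counts in the overexpression library and 5928 in the control library, a ratio of 1.22 (1.18 to 1.26). ADAM17, a related protease, stood at a ratio of 1.26 (1.18 to 1.34) from 2252 counts in the overexpression library and 1624 in the control library. PSEN2, a catalytic subunit of gamma-secretase, had 126 counts in the overexpression library and 74 in the control library, a ratio of 1.54 (1.15 to 2.08). The subunits NCSTN, APH1A, APH1B and PSENEN had intervals that include 1-fold.

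Of the 9 glycosylation genes, which add sugars to the receptors, none was 1.2-fold different by the size rule, with a median of 0.02. The members furthest from 0 were the xylosyltransferase GXYLT2 at a log2 ratio of 0.24 and LFNG, a Fringe enzyme that shifts which ligands a receptor prefers, at -0.23 from 26 counts in the overexpression library and 35 in the control library. Of the 7 measured genes of ligand endocytosis none was 1.2-fold different either, with a median of 0.05. MIB1, the ubiquitin ligase that lets ligands be taken up and pull, came closest, with 11319 counts in the overexpression library and 8575 in the control library and a log2 ratio of 0.26. MIB2, its relative, stood at -0.21.

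Among 13 measured genes of receptor trafficking and turnover, 2 were at least 1.2-fold lower and none higher. Of all measured genes, 5.74% were lower and 7.49% higher by the same rule. The 2 lower genes were both Deltex genes: DTX2 at a ratio of 0.730 (0.572 to 0.930) and DTX3 at 0.795 (0.711 to 0.887). DTX2 had 125 counts in the overexpression library and 155 in the control library. HEY1, whose interval from halved counts included 1-fold, had 129 and 157. DTX3 had 610 counts in the overexpression library and 695 in the control library. NUMB, an inhibitor that steers receptors away from the membrane, stood at 1.12 (1.07 to 1.17). FBXW7, which marks the active receptor fragment for destruction, stood at 1.08 (0.994 to 1.18).

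Of 7 measured coactivators of RBPJ none was 1.2-fold different, with a median of 0.05, the largest log2 ratios being those of the acetyltransferase KAT2B at 0.20 and of MAML3, a Mastermind coactivator, at 0.12. MAML2, another Mastermind coactivator, was below the count minimum, with 32 counts in the overexpression library and 10 in the control library. Of 15 measured corepressors none was 1.2-fold different, with a median of 0.01. The demethylase KDM5A was at 0.18 and RITA1, which moves RBPJ out of the nucleus, at -0.15. SPEN, the large corepressor that binds RBPJ directly, stood at a ratio of 1.08 (1.05 to 1.12).

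Of the other receptors and ligands, 3 of 12 chosen genes were measured, with 1 higher and none lower. Of all measured genes, 7.49% were higher and 5.74% lower. The higher ligand gene was DLK2, a non-classical ligand with 35 counts in the overexpression library and 17 in the control library. EGFL7, a secreted protein reported to bind Notch receptors, stood at 1.19 (1.06 to 1.33).

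Among the relatives of HES1, 1 gene was higher and 1 lower by the size rule. Of all measured genes, 7.49% were higher and 5.74% lower. Of 7 measured members of the HES and HEY family and their BHLHE relatives, HES2 was higher, at 1.39 (1.12 to 1.74), and BHLHE41 was lower, with 18 counts in the overexpression library and 104 in the control library, a ratio of 0.157 (0.0894 to 0.260). HES4, the most abundant HES gene per length, stood at 16.8 FPKM in the overexpression library and 17.4 FPKM in the control library, and HEYL at 1.08 FPKM in the overexpression library and 0.994 FPKM in the control library. HES6 stood at a ratio of 1.05 (0.945 to 1.16), and HES7 at 1.24 (1.02 to 1.51). HES7 just missed the size rule, with a log2 ratio of CPM plus 1 of 0.259 against 0.263 for 1.2-fold.

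Of all measured genes, 5.74% were at least 1.2-fold lower and 7.49% higher. Of 8 other measured genes reported as Notch targets, 3 were at least 1.2-fold lower and 1 higher, with a median of -0.13. The lower ones were the helix-loop-helix inhibitors ID1, ID2 and ID4, which are better known as targets of BMP signalling. ID4 had 1486 counts in the overexpression library and 1855 in the control library, a ratio of 0.725 (0.677 to 0.777). The higher one was the cell cycle inhibitor CDKN1A, at 1.24 (1.1 to 1.41). The cyclin CCND1 stood at 0.893 (0.867 to 0.920), and MYC at 0.929 (0.872 to 0.988).

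**Figure D4:**
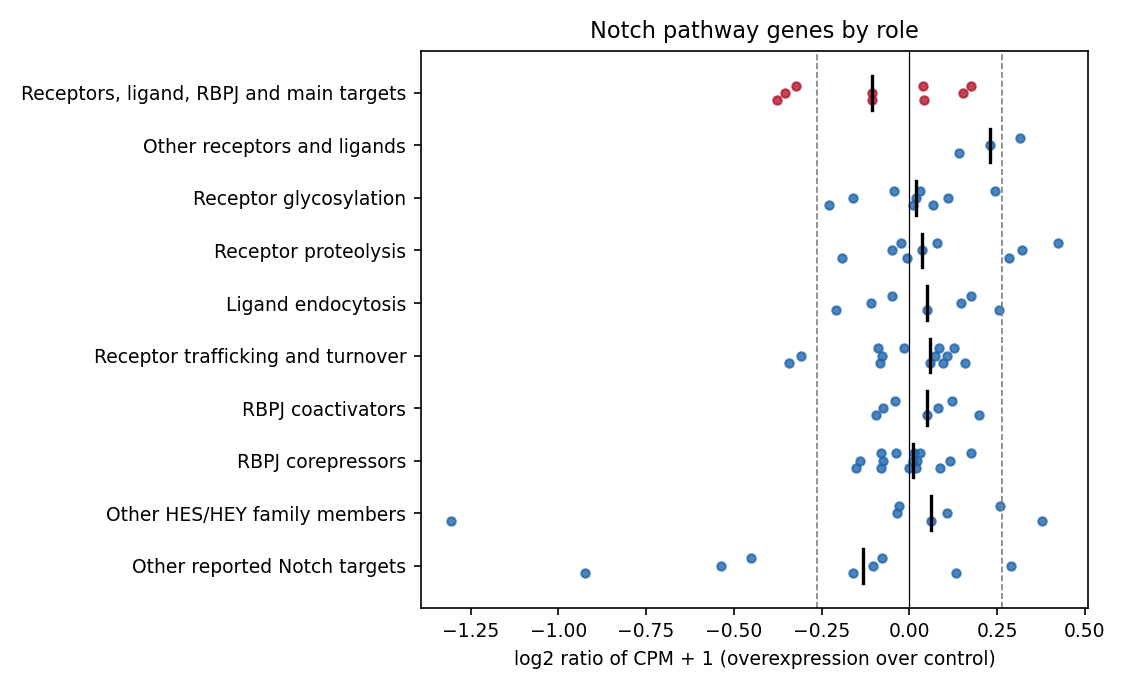
Log2 ratio (overexpression over control, after adding 1 to CPM) for each measured gene of the Notch pathway by role; points are genes, black ticks are list medians and dashed lines mark 1.2-fold. Medians lie between -0.13 and 0.23, and the genes furthest to the left are BHLHE41 at -1.31 and ID2 at -0.92.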

How the data were processed

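Poly(A) RNA was sequenced from 1 IGF2BP3-overexpressing and 1 control culture of OVCAR-3, in libraries that mark the strand with dUTP and were amplified by PCR, per the labels' protocols. Per the file headers, the authors deposited counts and FPKM for every listed gene. Gene lengths implied by a count and its FPKM were whole numbers to 0.01 for 99.98% of genes. Per the file headers, the authors also gave log2 fold changes, with no stated tool. The submitters' processing notes name GRCh38. Aligner, counter, strand setting and annotation release: not given in the sources used here, so overlapping and antisense genes may share reads.

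Libraries were scaled by TMM (edgeR 4.0.16, R 4.3.3). The log2 ratio was that of CPM plus 1 among 14157 genes whose counts summed to 50 or more; ratios without the constant carry 95% exact (Clopper-Pearson) counting intervals, and ratios of ratios exact conditional ones. Without molecular identifiers, reads are not independent molecules. Even numbers made up 63.3% of counts between 1 and 20 in the overexpression library and 64.1% in the control library, so intervals were also computed from halved counts. With 1 sample per group no p-value was computed. The size rule and the intervals were tested on simulated data drawn as independent counts. These draws were given no paired mates and no PCR copies, so they cannot show that the intervals suit the deposited counts. Positions and transcript words were taken from GENCODE release 29 (GRCh38), where 94.2% of the gene IDs were found. Alternatives were scaling by totals or DESeq2 1.42.0 size factors, FPKM plus 1, and other constants, count minimums and fold thresholds. Computations used Python 3.11.15 with pandas 2.3.3 and scipy 1.17.1.

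The members and lists were chosen with earlier results of these data known. Named genes were the 10 members and, in each list, those at least 1.2-fold different or, where fewer than 2 were, the 2 furthest from 0; a few others were named for their role after their values were seen.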

Additional observations from a re-analysis of the deposited data

How the results depend on the processing

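The direction of all 9 measured genes held under each alternative run, with HES1 between -0.37 and -0.31, HEY1 between -0.41 and -0.16, HEY2 between -0.67 and -0.13 and NOTCH2 between 0.14 and 0.18 on the log2 scale. With GC and length trends removed, an alternative added after seeing the data, RBPJ stood at 0.029 in place of 0.154, JAG2 at -0.035 in place of -0.105, NOTCH3 at -0.035 in place of -0.105, NOTCH1 at 0.113 in place of 0.041, NRARP at 0.101 in place of 0.039, the median of the Notch genes at -0.035 and that of the other pathway genes at 0.0082. On FPKM plus 1 or with a constant of 5 CPM, 1 of the Notch genes was at least 1.2-fold lower in place of 3; the constant then weighs more on low genes. A 1.1-fold threshold gave 2 higher Notch genes in place of 0, and a 1.5-fold threshold gave 0 lower ones. The median of -0.11 over the Notch genes was -0.11 with library totals, -0.10 with DESeq2 size factors, -0.067 on FPKM plus 1, -0.079 with 5 CPM, -0.033 with a count minimum of 200 (8 genes) and -0.056 with none (10 genes). The other pathway genes had a median of 0.011 with library totals, 0.025 with size factors and 0.010 on FPKM plus 1, against 0.020 with TMM. Of them, 0 were at least 1.2-fold higher on FPKM plus 1 and 2 with 5 CPM, against 6. At 1.1-fold, 13 were lower and 16 higher, and at 1.5-fold 2 and 0. Over all genes, 812 were lower and 1061 higher; these counts were 420 and 464 on FPKM plus 1, 190 and 407 with 5 CPM, 465 and 663 with a minimum of 200, 2378 and 2887 at 1.1-fold and 91 and 144 at 1.5-fold, and 1325 were lower with 0.1 CPM. With halved counts the intervals of HEY1 and HEY2 included 1-fold, and those of HES1, JAG2, NOTCH2 and RBPJ did not. No paired analysis was possible because each group held 1 library, and no library could be left out for the same reason. Depth leaves no ratio for JAG1, at 4 counts over both libraries, and among the 9 measured genes it limits HEY2 and HEY1 most, at 100 and 286 counts.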

Other observations

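HES1, HEY1, HEY2, BHLHE41 and the ID genes all encode helix-loop-helix proteins, and this set was looked at after their values had been seen, so its counts carry no test. By the deposited gene descriptions, 35 listed genes name that fold or the ID family, and 22 of them passed 50 counts. Genes of this fold that are described in other words were not counted, so the set does not stand for the whole family. Of the 22, 9 were at least 1.2-fold lower in the overexpression library and 1 was at least 1.2-fold higher, where 5.74% of all measured genes were lower and 7.49% higher. Without HES1, HEY1 and HEY2, 6 of 19 were lower and 1 was higher, with a median log2 ratio of -0.04. The 6 were BHLHE41, ID2, ID1, ID4, the tendon factor SCX and the mesenchymal factor TWIST1. SCX had 24 counts in the overexpression library and 38 in the control library. TWIST1 had 31 counts in the overexpression library and 45 in the control library, and its interval reached 1.01. ID2 had 541 counts in the overexpression library and 968 in the control library, a ratio of 0.506 (0.455 to 0.563).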
